A study of Rattus norvegicus with 17 samples.

Results

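The genes described here are those of the rat major histocompatibility complex (MHC) and the genes that serve antigen presentation with it. They were taken as every gene of the count table whose symbol begins with RT1-, the name of the rat MHC, which gave 47 genes, together with B2m, Tap1, Tap2, Tapbp, Cd74, Ciita and Nlrc5. These 54 genes are part of 34322 in the table. By role they comprised 3 class Ia genes, 34 class Ib genes, 5 classical class II genes, 4 genes of the DM and DO pairs and RT1-Ha, the remaining class II gene. All 47 RT1 genes lie on chromosome 20 in the rat assembly GRCr8.

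RNA was sequenced from the hippocampus of 17 adolescent Long-Evans rats aged 36 to 38 days. In the ET group (n = 5) the dam received a liquid diet with 6.7% ethanol from gestational day 0 to 20. In the PF group (n = 6) the dam was pair-fed, receiving over the same days a control liquid diet matched to what an ethanol dam ate, and in the AD group (n = 6) the dam ate standard chow ad libitum. The right hippocampus was used for 4 samples and the left for the rest. Each group was 1 litter, so diet and litter cannot be told apart, and p-values measure the spread between littermates. Libraries are named by group and replicate number; 2 PF libraries are named by animal, 11f5 and 11f6, because the labels do not tell which number each bears.

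Between 10853947 and 17498392 fragments were counted per library, with a median of 13538433. All 8 markers of hippocampal neurons, among them Prox1, Neurod6 and Camk2a, were above 3 counts in every library. The libraries ET 2, PF 11f6 and AD 4 stood apart, with a summed normalized count of 10 choroid plexus markers between 98600 and 126000, against 109 to 16500 in the other 14. They were left out of the study's final analysis, and the tests below use the other 14 libraries. In 2 AD libraries the sex-linked genes went against the labelled sex, and the sexes are not compared here.

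MHC class I molecules carry peptides from inside the cell to its surface, where CD8 T cells and natural killer cells read them. Class Ia genes encode the classical presenting molecules, and class Ib genes their many relatives, which are less polymorphic and often bound to restricted tissues. The class I heavy chain pairs with beta-2 microglobulin, and its peptides arrive through the TAP transporter. Class II molecules present peptides from endosomes to CD4 T cells, and in brain they are found mainly on microglia, perivascular macrophages and cells of the choroid plexus and meninges. Neurons themselves express class I genes, which have been linked to synaptic plasticity.

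The promoters of 5 neighbouring class Ib genes are shown because the counts of 3 of them, RT1-N2, RT1-S2 and RT1-O1, split the libraries in 1 way, as described below, and those of RT1-N3 and RT1-S3 do not, and that of the class Ia gene RT1-A2 is shown for contrast. Each runs from 250 bases before to 50 bases after the annotated start on the plus strand. Sequences are those of RefSeq for GRCr8, and a promoter sequence was at hand for 46 of the 54 genes. Positions are chr20:2646080-2646379 for RT1-N2, chr20:2654804-2655103 for RT1-S2, chr20:2659687-2659986 for RT1-O1, chr20:2666239-2666538 for RT1-N3, chr20:2675278-2675577 for RT1-S3 and chr20:4872621-4872920 for RT1-A2. Capitals mark matches, on either strand, to the core of the interferon-stimulated response element (TTTC and TTTC with any 2 bases between), to the CCAAT box (CCAAT) and to the core of the kappa-B site of class I enhancer A (GGGATTC).
RT1-N2: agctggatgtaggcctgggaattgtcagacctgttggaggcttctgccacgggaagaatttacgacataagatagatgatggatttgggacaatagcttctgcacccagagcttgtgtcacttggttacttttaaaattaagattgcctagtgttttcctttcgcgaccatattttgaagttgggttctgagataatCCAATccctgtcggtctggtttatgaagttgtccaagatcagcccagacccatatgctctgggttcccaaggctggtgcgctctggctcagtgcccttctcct
RT1-S2: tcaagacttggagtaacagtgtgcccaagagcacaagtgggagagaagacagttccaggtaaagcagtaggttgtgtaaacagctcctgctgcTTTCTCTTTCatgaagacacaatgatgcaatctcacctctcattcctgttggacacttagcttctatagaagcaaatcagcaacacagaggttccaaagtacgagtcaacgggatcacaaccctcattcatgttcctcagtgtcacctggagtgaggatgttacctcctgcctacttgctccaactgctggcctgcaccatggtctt
RT1-O1: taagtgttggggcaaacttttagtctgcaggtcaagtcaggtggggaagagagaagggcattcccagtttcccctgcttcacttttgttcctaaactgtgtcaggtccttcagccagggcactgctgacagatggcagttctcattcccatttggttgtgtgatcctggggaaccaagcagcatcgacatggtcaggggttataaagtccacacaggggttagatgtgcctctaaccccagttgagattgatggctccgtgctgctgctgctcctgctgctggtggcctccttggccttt
RT1-N3: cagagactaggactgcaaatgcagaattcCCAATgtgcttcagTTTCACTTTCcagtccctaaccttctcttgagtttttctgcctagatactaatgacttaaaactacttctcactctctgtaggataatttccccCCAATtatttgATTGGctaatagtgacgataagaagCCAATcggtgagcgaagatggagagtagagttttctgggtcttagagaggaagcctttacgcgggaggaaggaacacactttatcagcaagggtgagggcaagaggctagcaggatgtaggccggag
RT1-S3: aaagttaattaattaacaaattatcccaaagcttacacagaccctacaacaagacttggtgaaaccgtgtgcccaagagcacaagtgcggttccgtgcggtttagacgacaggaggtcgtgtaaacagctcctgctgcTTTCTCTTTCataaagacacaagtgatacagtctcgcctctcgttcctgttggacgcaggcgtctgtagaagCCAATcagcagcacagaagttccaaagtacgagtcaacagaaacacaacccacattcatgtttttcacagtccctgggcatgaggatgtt
RT1-A2: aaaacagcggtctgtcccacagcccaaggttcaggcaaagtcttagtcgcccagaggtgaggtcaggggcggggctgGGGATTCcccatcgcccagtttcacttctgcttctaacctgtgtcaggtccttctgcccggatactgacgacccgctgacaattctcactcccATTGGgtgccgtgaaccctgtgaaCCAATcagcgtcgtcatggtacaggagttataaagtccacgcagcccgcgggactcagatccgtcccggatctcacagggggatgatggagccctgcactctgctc
The response element core occurred in 3.92% of 33469 rat promoters of this length and in 3 of 32 class I RT1 promoters, those of RT1-S2, RT1-N3 and RT1-S3. The CCAAT box was in 37.5% of all promoters and in 21 of the 32. The kappa-B core was in 3.42% of all promoters and in 10 of the 32, namely all 3 class Ia genes RT1-A1, RT1-A2 and RT1-A3 and the class Ib genes RT1-M5, RT1-CE3, RT1-CE4, RT1-CE10, RT1-CE11, RT1-CE13 and RT1-CE16. RT1-O1 held none of the 3 motifs in this window, and RT1-N2 held a CCAAT box only. A match describes letters and does not show that a factor binds.

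Counts of each gene were scaled by TMM over the 17 libraries to the mean library size and are given as normalized counts. They are not divided by gene length, so levels are compared between libraries and not between genes. A library at or under 3 counts for a gene is called at the floor, and floors cover counting error only, since fragments had no molecular identifiers. Of the 54 genes, 28 were above the floor in every library, 16 in some libraries and 10 in none. The 10 were the class Ib genes RT1-M2, RT1-M5, RT1-M1-5, RT1-M1-4, RT1-M10-1, RT1-T24-2, RT1-CE7 and RT1-CE6 and the class II genes RT1-DOa and RT1-Ha.

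**Figure D1:**
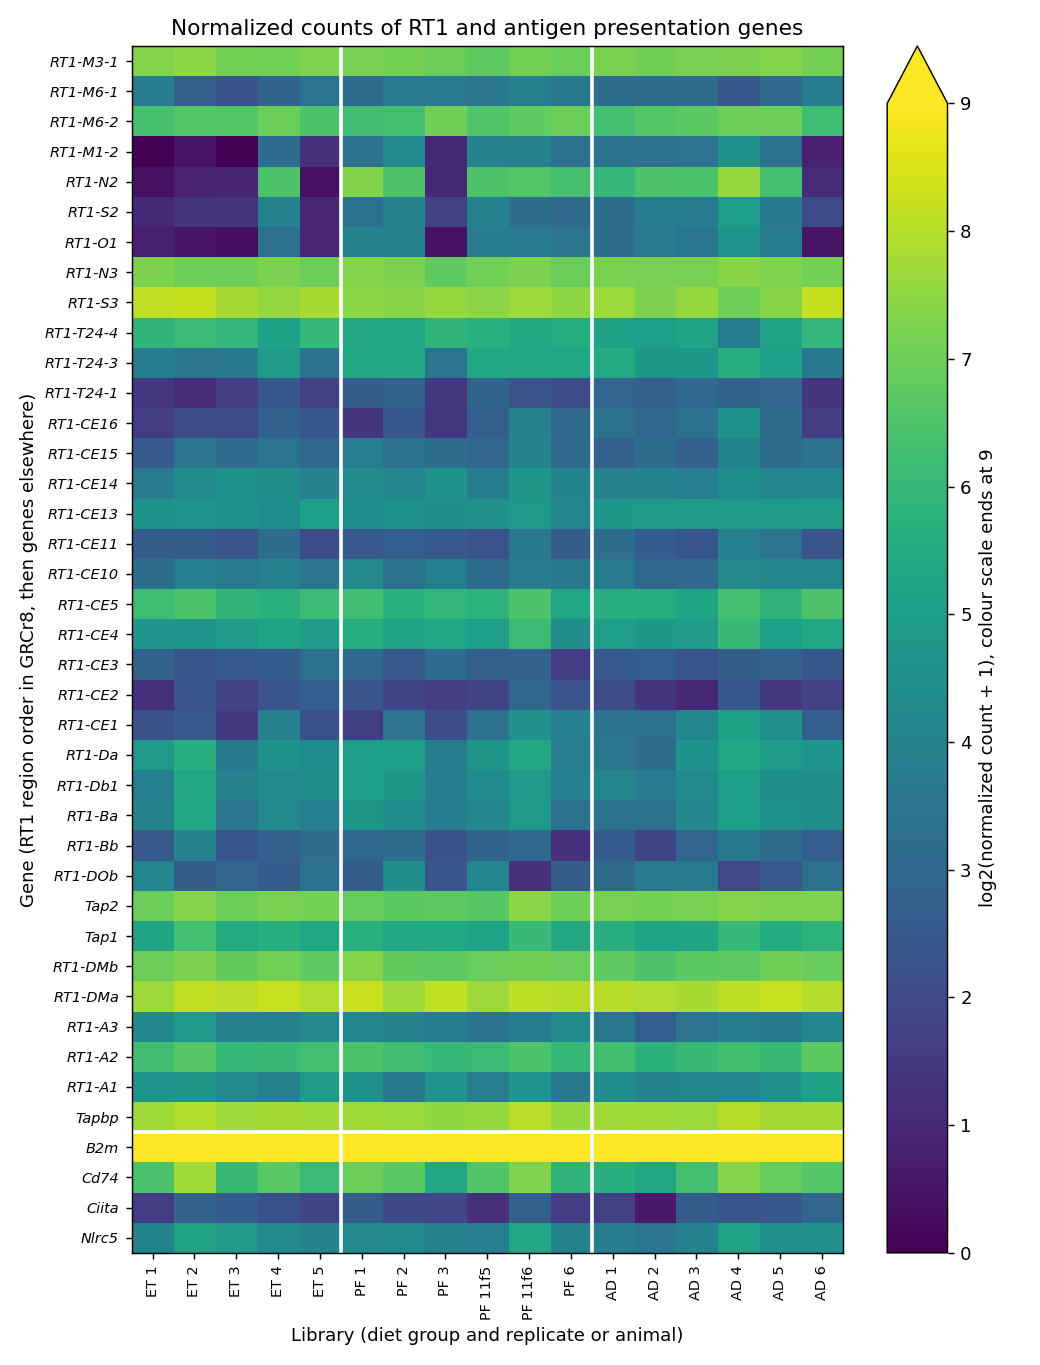
Normalized counts of the RT1 and antigen presentation genes with at least 1 library at 5 or more, on the scale log2(normalized count + 1), with 1 column per library and the 3 litters set apart by white lines. In 9 of the 40 rows the highest library is under 2 times the lowest, among them B2m, RT1-N3 and Tapbp, while RT1-M1-2, RT1-N2, RT1-S2 and RT1-O1 are dark in the same 6 libraries, of which 4 are ET, 1 PF and 1 AD.

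Among class Ib genes, RT1-N2 had 2 separate levels of counts that differed from animal to animal. On and off name these count levels only, and what sets them was not tested. In the ET litter it stood at 0.335, 0.807, 0.916 and 0.323 normalized counts in ET 1, ET 2, ET 3 and ET 5 and at 88.5 in ET 4. In the PF litter it was 156, 89.7, 88.5, 95.4 and 80.3 in PF 1, PF 2, PF 11f5, PF 11f6 and PF 6, and 1.04 in PF 3. In the AD litter it was 63.0, 89.2, 86.1, 192 and 81.3 in AD 1 to AD 5, and 1.16 in AD 6. All 6 low libraries were at the floor, no library lay between 1.16 and 63.0, and each litter held both states. RT1-N2 was thus on in 1 of 5 ET, 5 of 6 PF and 5 of 6 AD libraries.

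RT1-O1, the next but one class I gene along the chromosome, also had 2 levels. It was 0.671, 0.403, 0.305 and 0.968 in ET 1, ET 2, ET 3 and ET 5 and 8.72 in ET 4. It was 15.3, 14.7, 12.7, 12.4 and 9.96 in PF 1, PF 2, PF 11f5, PF 11f6 and PF 6 and 0.345 in PF 3. It was 8.63, 12.2, 10.4, 24.0 and 12.6 in AD 1 to AD 5 and 0.385 in AD 6. The same 6 libraries were low for both genes. A gene was taken to have 2 levels where its highest library reached 20 and the widest gap between neighbouring libraries was at least 2 on the scale log2(normalized count + 1). This held for 2 of the 31 genes of the set that reached 20, against 2.08% of the 15695 such genes in the table. RT1-O1 reached 20 only in AD 4, a choroid plexus-rich library. Without AD 4, or in the 14 libraries of the final analysis, RT1-N2 alone met the rule. The gap was 4.89 for RT1-N2 and 2.29 for RT1-O1, and those next below the limit were RT1-M1-2 at 1.93, RT1-T24-4 at 1.21, RT1-S2 at 1.08 and RT1-T24-3 at 1.00. For RT1-T24-4 and RT1-S2 the widest gap set AD 4 alone apart from the other libraries.

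The split of the libraries by RT1-N2 was then read across the other genes, a comparison chosen after the values were seen and given as a description. Of 40 genes of the set with a library at 5 or more, 6 were higher in all 11 libraries with RT1-N2 on than in all 6 with it off: RT1-N2 itself, which sets the split, RT1-O1, RT1-S2, RT1-M1-2, RT1-T24-3 and RT1-T24-1, all class Ib. Among all 18821 such genes, 8 or 0.0425% did so, these 6 included. All of the 6 but RT1-T24-3 reached 5 only in libraries with RT1-N2 on, so the 6 cannot be read against that share. RT1-T24-4 was the 1 member of the set that went the other way, lower in all 11 than in all 6, against 3 genes, itself included, or 0.0159% of the table. On unscaled counts RT1-T24-4 did not separate, since PF 11f5 and AD 6 both stood at 53.0. The counts over all genes depended on the libraries used, at 8 to 15 higher and 3 to 27 lower when single libraries were left out, with 27 without PF 3, and at 16 and 13 in the 14 libraries of the final analysis. Apart from RT1-M1-2, these genes sit in 1 stretch of chromosome 20 in GRCr8 that runs in the order RT1-N2, RT1-S2, RT1-O1, RT1-N3, RT1-S3, RT1-T24-4, RT1-T24-3, RT1-T24-2 and RT1-T24-1. RT1-M1-2 lies away from them, with RT1-M10-1, RT1-T18 and other genes in between, and these 2 RT1 genes were too low to be read for the split.

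RT1-S2 was at 0.968 to 3.08 normalized counts in the 6 libraries with RT1-N2 off, all at the floor, and at 7.30 to 32.2 in the other 11. RT1-M1-2 was at 0 to 1.29 in the 6, again all at the floor, and at 7.75 to 23.2 in the 11. RT1-T24-1, a low gene throughout, was at 1.21 to 2.26 and at 3.32 to 7.37. These 3 genes were thus off, or near it, in the same animals as RT1-N2.

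RT1-T24-3 was not off in any library but had a low and a high range. In the 6 libraries it was 12.7, 10.9, 11.3 and 9.36 in ET 1, ET 2, ET 3 and ET 5, 10.4 in PF 3 and 11.6 in AD 6. In the others it was 30.0 in ET 4, between 37.9 and 41.5 in the PF litter and between 26.5 and 50.5 in the AD litter. RT1-T24-4, its neighbour, had the mirrored order. It was 58.3, 68.6, 61.4 and 64.5 in ET 1, ET 2, ET 3 and ET 5, 58.4 in PF 3 and 61.2 in AD 6, and elsewhere 34.2 in ET 4, 39.9 to 51.9 in PF libraries and 13.1 to 36.2 in AD libraries.

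RT1-S3 leaned the same way as RT1-T24-4 without separating. It was 283, 298, 220 and 228 in ET 1, ET 2, ET 3 and ET 5 and 296 in AD 6, but 191 in PF 3, which lay within the 129 to 205 of the other 11 libraries. Between RT1-O1 and RT1-S3, RT1-N3 was at 112 to 168 in all 17 libraries, and its ranges in the 6 libraries, 112 to 147, and in the 11, 124 to 168, overlapped. AD 4 was the highest library for RT1-N2, RT1-O1, RT1-S2, RT1-M1-2 and RT1-T24-3 and the lowest for RT1-T24-4 and RT1-S3. It is also 1 of the 3 libraries rich in choroid plexus RNA, and the part of that tissue was not tested; ET 2, another of the 3, had RT1-N2 off and PF 11f6 had it on.

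**Figure D2:**
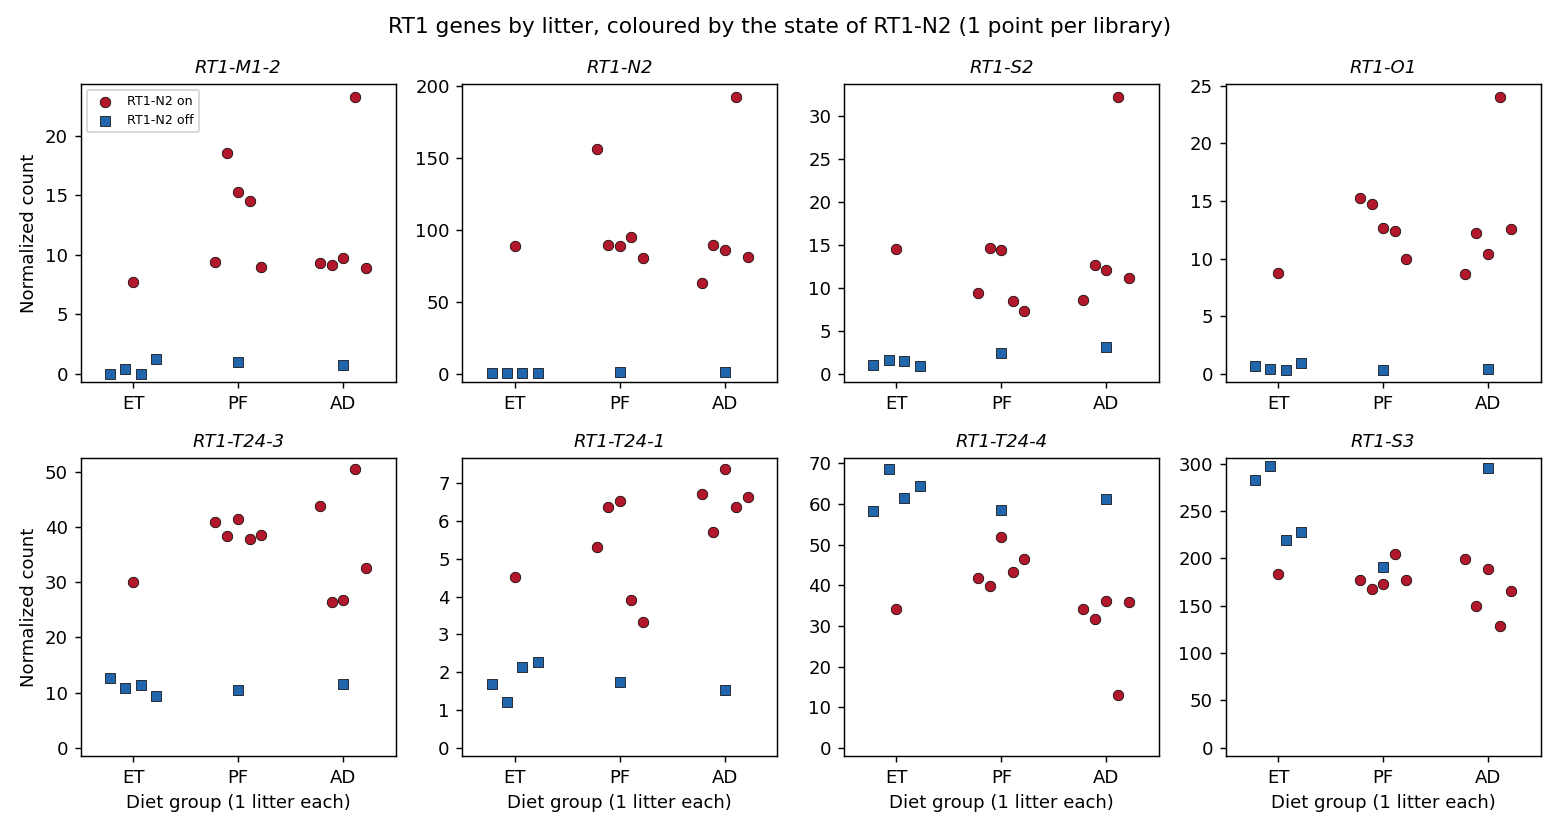
Normalized counts of 8 class Ib genes by litter, 1 point per library, with circles for the 11 libraries with RT1-N2 on and squares for the 6 with it off; each panel has its own linear axis. The squares lie below all circles for RT1-M1-2, RT1-N2, RT1-S2, RT1-O1, RT1-T24-3 and RT1-T24-1, above all circles for RT1-T24-4, and mixed at 191 for RT1-S3.

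Outside the set, 4 genes followed the split, and they too were named after their values were seen. Fastkd5 on chromosome 3 and RragB on chromosome X were higher in all 11 libraries, with narrow gaps. Fastkd5 was at most 125.4 in the 6 libraries with RT1-N2 off and at least 126.4 in the 11, and RragB at most 1512 and at least 1524. Mdc1 on chromosome 20 and LOC120093125, which had no match in GRCr8, were lower in all 11. Mdc1 was at most 221.9 in the 11 and at least 224.3 in the 6, and LOC120093125 at most 15.2 and at least 16.9. The authors' counting allowed reads to count for several features and asked only for a mapping quality of 10, so reads of near-identical RT1 genes may have been split, shared or dropped, and every RT1 value is uncertain to that extent.

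In the RT1-CE cluster, also class Ib, RT1-CE1 followed RT1-N2 in all libraries but PF 1. It was at 1.83 to 5.39 in the 6 libraries with RT1-N2 off and at 2.18 in PF 1, where RT1-N2 was on at 156. In the other 10 libraries it was at 9.10 to 34.4, highest in AD 4. RT1-CE16 was at 1.56 in PF 1 and 22.8 in AD 4, with overlap between the states. RT1-CE7 was at 0 in all 11 ET and AD libraries and at 1.28 to 3.19 in all 6 PF libraries, but these were at most 3 counts and thus at the floor, so no fold is given. Fitted by edgeR with no filter on low counts, RT1-CE7 had an adjusted p of 0.056 in ET against PF and 0.030 in PF against AD, and by DESeq2 0.42 and 0.27.

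The remaining class Ib genes with a library at 20 or more varied less. RT1-M3-1 ranged from 109 to 177, RT1-M6-2 from 72.0 to 132, RT1-CE5 from 36.9 to 88.6, RT1-CE4 from 20.6 to 69.1, RT1-CE13 from 16.3 to 33.2 and RT1-CE14 from 12.4 to 26.2. For RT1-CE4 the highest libraries were PF 11f6 at 69.1 and AD 4 at 66.6, both rich in choroid plexus RNA, while ET 2 was within the range of the others. The low class Ib genes, all under 20, were RT1-M6-1 at 3.66 to 14.2, RT1-CE10 at 7.02 to 18.7, RT1-CE15 at 5.03 to 15.7, RT1-CE11 at 3.23 to 13.9, RT1-CE3 at 1.99 to 9.03, RT1-CE2 at 1.01 to 7.09, RT1-T18 at 0 to 4.62, RT1-CE12 at 0.385 to 4.12 and RT1-M4 at 0 to 3.92. Summed over 34 class Ib genes, the normalized count was 845 to 1000 in ET, 845 to 1140 in PF and 884 to 1240 in AD libraries, so the litters overlapped.

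The class Ia genes, the classical presenting molecules, were above the floor in every library. RT1-A2 was at 54.6 to 105, RT1-A1 at 11.3 to 34.3 and RT1-A3 at 5.46 to 27.4. The lowest library was AD 2 for RT1-A2 and RT1-A3, and the highest AD 6 for RT1-A1 and RT1-A2. AD 6, with RT1-N2 off, was thus high in class Ia genes, and so was ET 2, with 99.6 for RT1-A2 and 27.4 for RT1-A3. The sum of the 3 genes was 97.2 to 153 in ET, 91.4 to 127 in PF and 75.2 to 156 in AD libraries.

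B2m, the light chain of every class I molecule, was the steadiest of the 28 genes above the floor throughout. It was 3840, 4530, 3710, 3760 and 3580 in ET 1 to ET 5. It was 3890, 3560, 3450, 3210, 3740 and 3660 in PF 1, PF 2, PF 3, PF 11f5, PF 11f6 and PF 6, and 3720, 3120, 3320, 3520, 3640 and 3610 in AD 1 to AD 6. ET 2 was the highest library, and the 3 litters overlapped. The highest library was 1.45 times the lowest, and B2m did not follow RT1-N2.

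Peptide loading genes were also on in every library. Tap1, a subunit of the peptide transporter, was at 37.2, 78.6, 44.3, 48.4 and 38.1 in ET 1 to ET 5. It was 51.5, 40.2, 39.7, 36.2, 66.3 and 42.1 in the PF libraries in the order given for B2m, and 49.2, 35.6, 37.5, 64.4, 45.8 and 55.8 in AD 1 to AD 6. The highest 3 were ET 2, PF 11f6 and AD 4. Tapbp, tapasin, which holds class I molecules to the transporter, was 207, 247, 202, 222 and 210 in ET, 217, 198, 180, 188, 267 and 196 in PF and 212, 210, 197, 258, 220 and 220 in AD libraries in the same orders. Again the highest 3 were those libraries.

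Tap2, the other subunit of the transporter, was at 126, 159, 124, 146 and 137 in ET 1 to ET 5. It was 115, 105, 108, 99.9, 173 and 127 in the PF and 141, 138, 143, 160, 152 and 154 in the AD libraries. Without PF 11f6, all PF libraries were below all AD libraries. Over the 14 libraries the mean was 133 ± 10.4 (SD, n = 4) in ET, 111 ± 10.7 (SD, n = 5) in PF and 146 ± 7.202 (SD, n = 5) in AD.

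Nlrc5, the transactivator of class I genes, was at 15.8, 35.1, 27.5, 18.7 and 15.2 in ET 1 to ET 5. In PF libraries it was 17.8, 18.8, 14.2, 13.4, 39.0 and 15.3, and in AD libraries 13.1, 10.7, 14.4, 36.3, 22.2 and 22.7. The 3 choroid plexus-rich libraries were its highest. Ciita, the master regulator of class II genes, was near the floor. It was 2.01, 6.05, 5.19, 3.55 and 2.58 in ET, 5.31, 2.87, 2.76, 1.31, 5.67 and 1.99 in PF and 2.24, 0.520, 5.36, 4.12, 4.43 and 6.93 in AD libraries, with 8 of 17 at the floor. Its counts were too low to be tested between litters.

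Cd74, the invariant chain that escorts class II molecules, varied most among the partner genes above the floor. It was 85.2, 213, 67.5, 103 and 69.7 in ET 1 to ET 5. In PF libraries it was 126, 104, 40.8, 92.1, 151 and 56.7, and in AD libraries 50.5, 38.7, 79.1, 162, 115 and 97.1. The highest library was 5.50 times the lowest, and the highest 3 were again ET 2, AD 4 and PF 11f6, 1 from each litter. Among the other 14 the range was 38.7 to 126, with all litters overlapping.

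Of the classical class II genes, whose products form the RT1-B and RT1-D pairs, RT1-Da and RT1-Ba varied in a like way. RT1-Da was at 8.06 to 49.2, RT1-Db1 at 12.5 to 41.5, RT1-Ba at 8.96 to 38.7, RT1-Bb at 1.33 to 14.9 and RT1-Db2 at 0.670 to 4.25. RT1-Da stood at 49.2, 40.1 and 41.9 in ET 2, PF 11f6 and AD 4, above all 14 other libraries, of which the highest was at 32.5. RT1-Ba did so too, with 38.7, 28.4 and 31.4 against at most 25.9. RT1-Db1 did not, since PF 1 at 30.9 passed PF 11f6 at 28.0. Nor did RT1-Bb, with PF 2 at 8.62 above PF 11f6 at 7.44, or RT1-Db2, with ET 5 at 3.23 above ET 2 at 2.02. The summed classical class II count was 40.9 to 146 in ET, 38.8 to 108 in PF and 33.3 to 119 in AD libraries.

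The DM pair, which edits the peptides of class II molecules, showed no such order. RT1-DMa was at 205 to 308 and RT1-DMb at 88.4 to 159, each highest in PF 1. RT1-DOb, a subunit of the DM inhibitor DO, was at 1.42 to 20.7, highest in PF 2 and lowest in PF 11f6. Its partner gene RT1-DOa was at the floor throughout.

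Of the 40 genes of the set with a library at 5 or more, 7 were higher in each of ET 2, PF 11f6 and AD 4 than in each of the other 14 libraries: Cd74, RT1-Da, RT1-Ba, Nlrc5, Tap1, Tap2 and Tapbp. Among all 18821 such genes 735, or 3.91%, did so. No gene of the set was lower in each of the 3 than in the rest, against 0.654% of all genes. This description was chosen after the values were seen. Ttr, the choroid plexus transthyretin gene, was at 87500, 100000 and 112000 in these 3 and at most 14600 elsewhere. ET 1 and PF 2, next in Ttr at 13700 and 14600, were within the range of the others for Cd74, at 85.2 and 104. The summed microglia markers were 4530, 4110 and 3770 in the 3 libraries and 3590 to 4950 in the rest, the summed perivascular macrophage markers 298, 163 and 83.5 against 119 to 281. All 10 microglia markers had counts above the floor in some library, B cell markers summed to 5.53 to 31.4, and T cell markers summed to 114 to 280, of which Cd3d, Cd3g, Cd2 and Cd8a were at the floor throughout and Cd3e and Cd4 made up nearly all of the sum. In the 3 libraries the T cell sum was 252, 140 and 132. The part of each cell type was not tested, and in bulk tissue fewer cells of a type and less RNA per cell cannot be told apart.

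**Figure D3:**
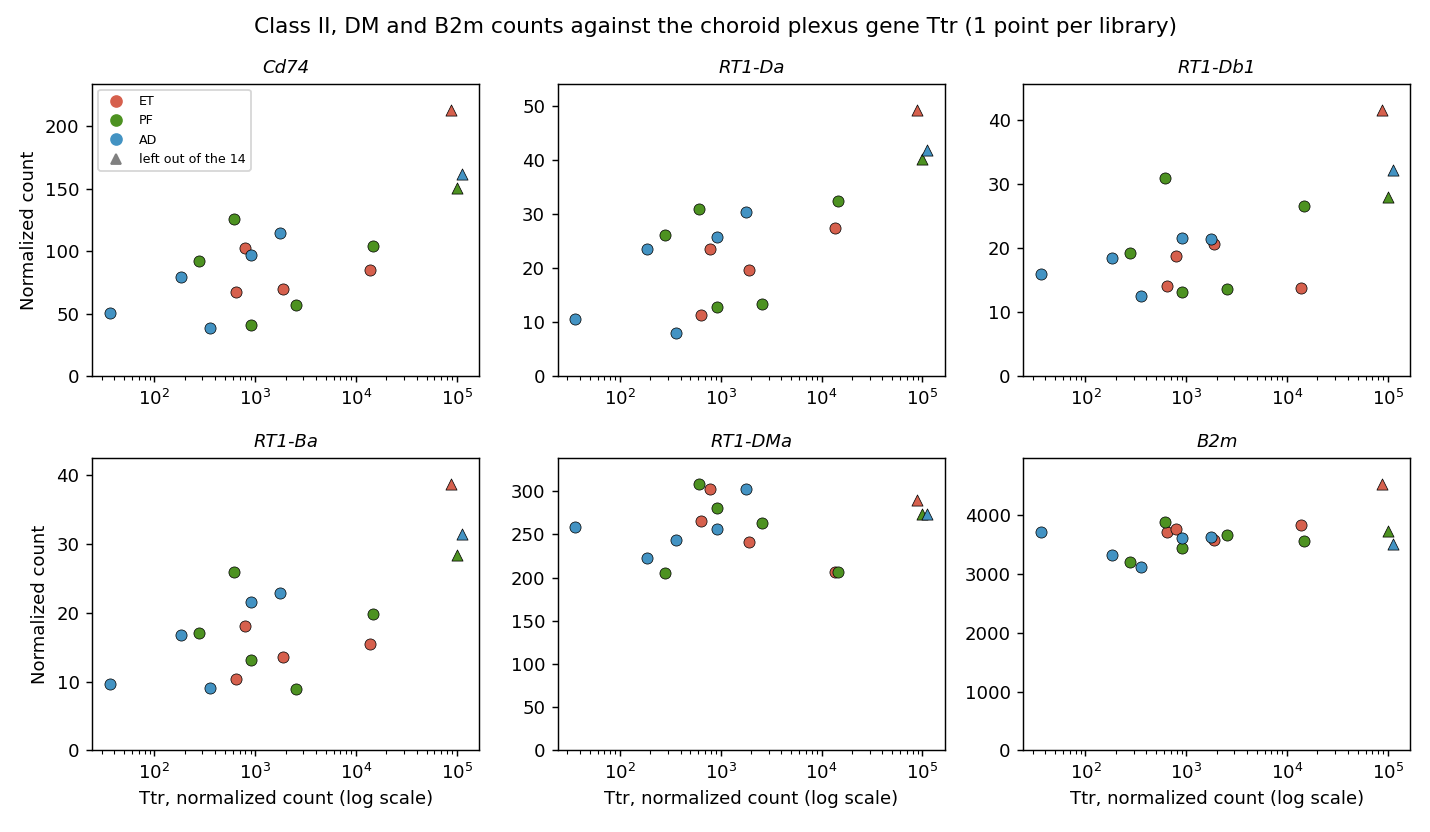
Normalized counts of Cd74, RT1-Da, RT1-Db1, RT1-Ba, RT1-DMa and B2m on linear axes against that of Ttr on a log axis, 1 point per library, coloured by litter, with triangles for the 3 libraries left out of the final analysis. The triangles are the highest points for Cd74, RT1-Da and RT1-Ba, whereas for RT1-DMa and B2m they mostly fall among the others.

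The litters were compared in pairs over the 14 libraries with edgeR's quasi-likelihood test, adjusted by Benjamini-Hochberg over all genes tested, and a gene was called where its adjusted p was below 0.01 and its log2 fold change beyond 1.5 in either direction. The comparison of ET with PF asks for an effect of ethanol beyond that of the liquid diet. Of 28 genes of the set tested in ET against PF, 0 were called in either direction, where 2.13% of all 16068 genes were called lower in ET and 0.0373% higher. The filter on low counts kept 25 of the 54 genes out of every comparison, RT1-M1-2 and RT1-T24-1 among them. It also kept RT1-S2 out of ET against PF and RT1-O1 out of ET against AD. The 0 calls do not cover genes kept out. At an unadjusted p below 0.05, 4 of the 28 differed, RT1-O1 and RT1-T24-3 lower and RT1-S3 and Tap2 higher in ET, or 14.3% against 11.9% of all genes. The median log2 fold change was 0.01 over the set and 0.01 over all genes.

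In ET against PF, RT1-N2 had a log2 fold change of -1.91 with an SE of 1.12 and an adjusted p of 0.62 in edgeR's quasi-likelihood test. Its mean was 22.5 ± 44.0 (SD, n = 4) in ET and 83.0 ± 55.0 (SD, n = 5) in PF, each SD reflecting both states within 1 litter. For RT1-O1 the values were -1.94, SE 0.86 and adjusted p 0.40, and for RT1-T24-3 -1.09, SE 0.42 and adjusted p 0.30. RT1-T24-4 was at 0.19 with an SE of 0.19 and RT1-S3 at 0.37 with an SE of 0.11, the latter with an adjusted p of 0.16, the smallest of the set. Single libraries moved these values. Without ET 4 the ET libraries were all at the floor for RT1-N2, and its adjusted p was 0.029 by edgeR, which is still not below 0.01. The same held for RT1-O1, at an adjusted p of 0.11 without ET 4, and its log2 fold change was -2.24 with an adjusted p of 0.12 without PF 3. RT1-T24-3 was at -1.59 with an adjusted p of 0.08 without ET 4 and at -1.31 with 0.046 without PF 3. RT1-T24-4 was at 0.10 without ET 5 and at 0.37 without ET 4.

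Against AD, the group on chow, ET was compared in the same way. Of 27 genes tested in ET against AD, 0 were called and 0 had an unadjusted p below 0.05, where 0.0127% of 15749 genes were called lower, 0.0% higher and 2.74% had such a p. RT1-N2 was at -1.55 with an SE of 1.09, RT1-S2 at -1.07 with an SE of 0.67, RT1-T24-3 at -0.84 with an SE of 0.40 and RT1-T24-4 at 0.46 with an SE of 0.24, all with an adjusted p of 1.0 in edgeR. Without ET 4, ET was at the floor for RT1-N2 and RT1-S2, and their adjusted p was 0.52 and 0.41, and RT1-T24-3 was at -1.33. These comparisons share the ET libraries with those above and are not independent of them.

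In PF against AD, 2 control litters without ethanol, 0 of 29 genes were called, where 0.0251% of 15960 genes were called lower in PF and 2.02% higher. At an unadjusted p below 0.05, 2 of the 29 were lower in PF, or 6.90% against 16.4% of all genes, namely Tap2 and RT1-CE13. Tap2 had a log2 fold change of -0.39 with an SE of 0.08 and an adjusted p of 0.009 in edgeR, past the p threshold but not the fold threshold. Over other settings its adjusted p ranged from 0.0023 to 0.21, the highest with all 17 libraries. RT1-CE13 was at -0.46 with an SE of 0.12 and an adjusted p of 0.15. RT1-N2, on in 4 of 5 libraries of both groups, was at 0.36 with an SE of 0.66. DESeq2 also called 0 members in each of the 3 comparisons.

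**Figure D4:**
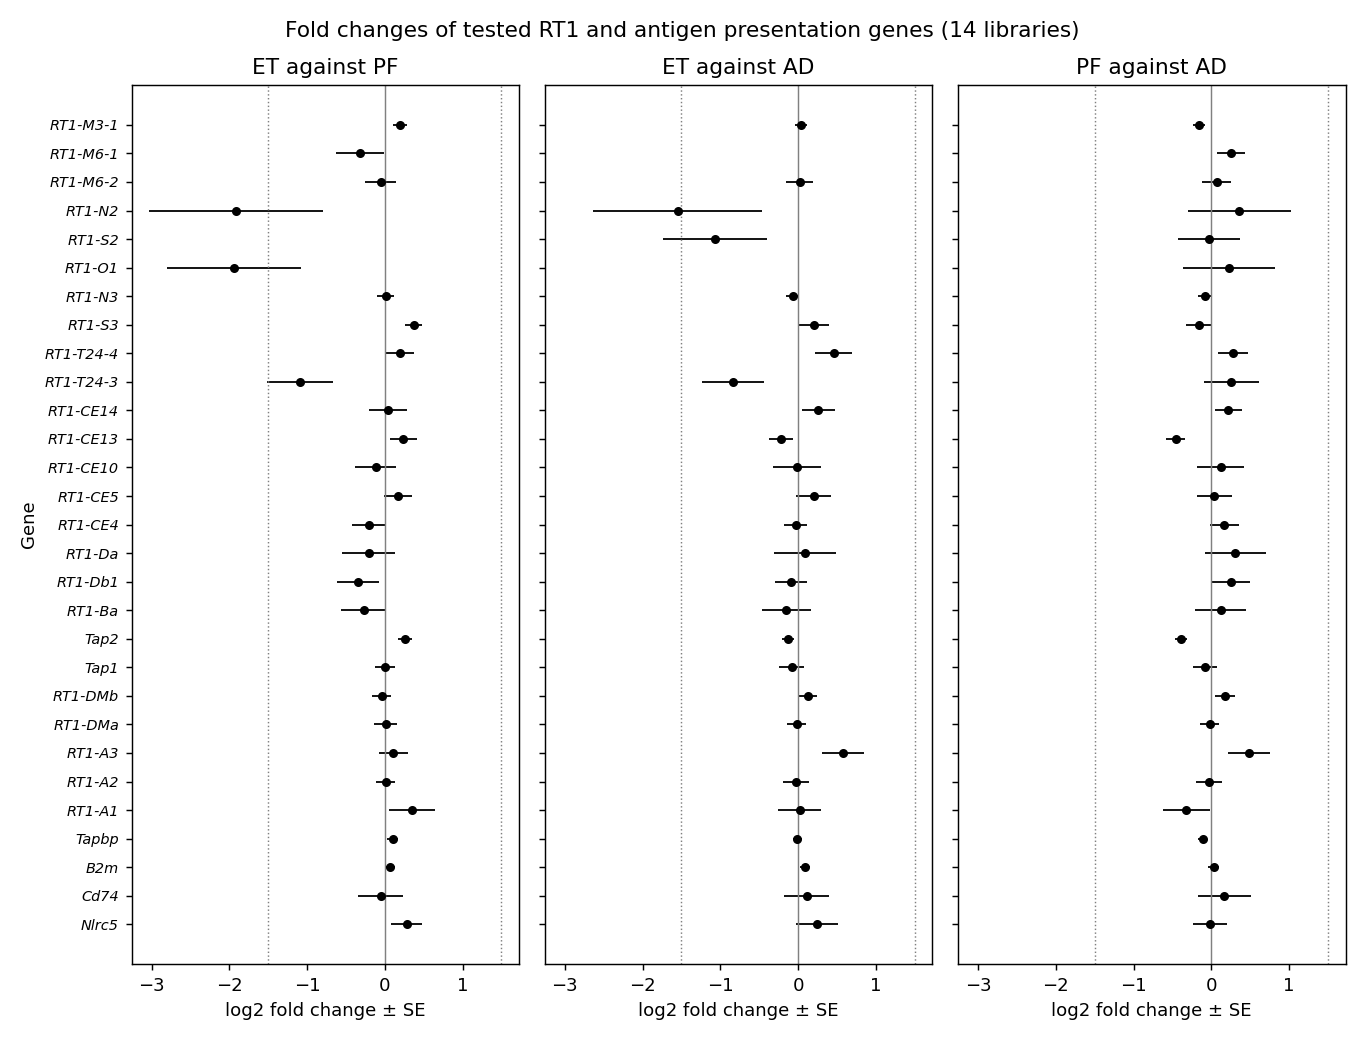
Log2 fold changes with SE of the tested genes in the 3 comparisons over 14 libraries, with dotted lines at the fold threshold of 1.5. Bars are widest for RT1-N2, at an SE of 1.12, 1.09 and 0.66, and lie near 0 for B2m and Tapbp.

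Among the partner genes, the log2 fold change of B2m was at 0.07 in ET against PF, 0.09 in ET against AD and 0.03 in PF against AD, with an SE of 0.06 to 0.07. Tapbp was at 0.10, -0.01 and -0.11 in the same order, and Cd74 at -0.05, 0.11 and 0.17 with an SE of 0.29 to 0.34.

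Other genes of the pathway were taken from fixed lists chosen with earlier results known. Of 12 further genes of class I processing, 6 of class II processing and 11 transcription factors of MHC genes, 0 were called in any of the 3 comparisons. Over all genes, 2.13% were called lower and 0.0373% higher in ET against PF, and 0.0127% and 0.0% in ET against AD. In PF against AD these shares were 0.0251% and 2.02%, so 0 calls among so few genes lies near them. Rfxank, a subunit of the RFX complex that binds MHC promoters, had the smallest p of its list, at a log2 fold change of -0.38 with an SE of 0.09 and an adjusted p of 0.029 in ET against PF by edgeR, and at 0.33 with an adjusted p of 0.025 in PF against AD. PF thus had the highest mean, 125 ± 7.35 (SD, n = 5), beside 95.9 ± 8.36 (SD, n = 4) in ET and 99.4 ± 8.59 (SD, n = 5) in AD. Tapbpl, a relative of tapasin, was at 0.29 with an adjusted p of 0.15 in ET against PF, and so was Ifi30, a reductase of the class II route. In PF against AD the smallest p of the class I list was that of Hspa5, the endoplasmic reticulum chaperone BiP, at -0.20 with an SE of 0.05 and an adjusted p of 0.032, and Ifi30 was at -0.27 with an adjusted p of 0.23. In ET against AD the genes with the smallest p were Hspa5 at -0.14, the class II protease gene Ctss at 0.10 and Rfx5, another RFX subunit, at -0.12, each with an adjusted p of 1.0 in edgeR. Of 7 MHC receptor genes, 6 had a row, and Cd4 was the only one with enough counts to test, at 0.29 in ET against PF, -0.08 in ET against AD and -0.37 in PF against AD, with no call.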

How the data were processed

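RNA was sequenced as paired ends from 17 hippocampi, with 3 technical replicates each. The authors trimmed reads with fastp 0.23.2, mapped them to mRatBN7.2 with Bowtie2 2.4.2 and counted exons with featureCounts 2.0.1 at a mapping quality of at least 10, allowing reads to count for several features; the strand setting is not given in the sources used here. Each value the authors deposited is an expected count, the mean of a gene's counts over the technical replicates, without normalization; 100% of values were multiples of 1/3 (3 times the value within 0.01 of a whole number) and 53.3% were whole (to within 1e-06).

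Counts were rounded, filtered with filterByExpr, scaled by TMM and tested with edgeR 4.0.16 in R 4.3.3, with DESeq2 1.42.0 as an alternative; both steps were tested on simulated data. The study's final analysis used 14 libraries, a threshold of adjusted p below 0.01 and no covariate, and these were kept. For the fold threshold the paper's methods name an absolute fold change above 1.5, whereas its results name a log2 fold change above 1.5. The log2 form was used here, with the other as the lower fold threshold below. Low values were described on log2(normalized count + 1). Other alternatives were median-of-ratios scaling, no filter, all 17 libraries, 1 fit of the 3 groups, a replicate block, a lower fold threshold and leaving out each library. No pair of libraries of 1 litter agreed within sampling noise (40 pairs, smallest chi-square per gene 2.88). Values in every library are given for members with 2 levels or a call and for members that are not RT1 genes, ranges for other RT1 members, and, of the other pathway genes, counts of calls and values for those with the smallest p in a list. The members and lists were chosen with earlier results of these data known, and the split by RT1-N2 after its values were seen. The kappa-B pattern was shortened to its core after a longer form had been searched.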

Additional observations from a re-analysis of the deposited data

Results flagged for a closer look

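In each litter, the lowest and highest library of the 31 genes with a library at 20 or more were set against the other libraries of the litter by Dixon's ratio of gap to range. Of 93 gene and litter pairs, 21 held a library past the 95% critical value; chance flags about 1 in 20 groups, but some genes reached 20 only through the library that stood apart, so 21 of 93 cannot be read against that rate.

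ET 4 stood above its litter for RT1-N2 at 88.5 normalized counts and for RT1-M1-2 at 7.75, RT1-S2 at 14.5, RT1-O1 at 8.72 and RT1-T24-3 at 30.0, which follow its split, and also for RT1-CE1 at 14.2, which does not follow it in PF 1. PF 3 stood below its litter for RT1-O1 at 0.345 and RT1-T24-3 at 10.4. ET 2 stood above its litter for B2m at 4530, Cd74 at 213, RT1-Db1 at 41.5, RT1-Ba at 38.7, Tap1 at 78.6 and RT1-A3 at 27.4. PF 11f6 stood above its litter for Nlrc5 at 39.0 and Tap2 at 173. AD 4 did so for RT1-S2 at 32.2, RT1-CE16 at 22.8, RT1-CE4 at 66.6 and Tapbp at 258. AD 6 did so for RT1-A1 at 34.3. ET 2, PF 11f6 and AD 4 are the choroid plexus-rich libraries, and the part of that tissue was not tested.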

How the results depend on the processing

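No member was called in any of the 3 comparisons under any alternative run (16 for ET against PF, 16 for ET against AD, 17 for PF against AD), and of the fold changes refitted under them (RT1-N2, RT1-T24-3 and RT1-T24-4 of ET against each control, RT1-O1 against PF, RT1-S2 against AD, and Tap2 in PF against AD) none reversed in the alternatives that kept the gene and gave an adjusted p, which were 11 of 16 for RT1-O1, 13 of 16 for RT1-S2, 15 of 16 for RT1-N2 against AD and all for the rest. Without ET 4 the log2 fold change of RT1-N2 in ET against PF was fitted with ET at the floor, so its size is no bound; its adjusted p over all alternatives was 0.013 to 1.0, and that of RT1-T24-3 was 0.046 to 0.57. The count of genes with 2 levels in the set, 2, became 1 (RT1-N2) with a gap of at least 3, with a pseudocount of 5, with a highest library of at least 50, with 14 samples and without AD 4, and was 1 to 3 over single libraries left out, the 3 including RT1-M1-2 without ET 4 or ET 5. The 1 member lower where RT1-N2 is on became 0 on unscaled counts and was 1 to 2 over single libraries left out, the second being RT1-S3 without PF 3. The 6 members higher there were 6 to 7, the seventh being RT1-CE1 without PF 1.

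Over all genes, ET against PF gave 343 lower and 6 higher calls, with 17 higher at a fold change above 1.5, and 2 to 6 higher over single libraries left out, lowest without ET 4. ET against AD gave 2 lower and 0 higher, and 0 to 1 higher over libraries left out, the 1 without ET 1. PF against AD gave 4 lower and 323 higher, with 8 lower by DESeq2, 8 lower and 485 higher with no filter, and 18 lower at a fold change above 1.5. The cause was not tested.

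The replicate numbers join different animals. Deviations of libraries with 1 number correlated at 0.014 to 0.649 (2 pairs) in ET against PF, -0.234 to 0.162 (3 pairs) in ET against AD and -0.081 to 0.15 (4 pairs) in PF against AD, and 2 of 4, 1 of 6 and 2 of 8 libraries correlated best with their own number, so the numbers were not taken as pairs. The block fit also dropped PF 11f5, which has no number, so it changed the libraries as well. With the replicate block, ET against PF gave 194 lower and 3 higher calls, ET against AD 0 lower, and no member was called. The adjusted p of RT1-N2 in that fit was 0.013 against PF and 0.047 against AD. Numbers without a partner carry no weight in it, ET 4 among them, so that the values against PF rest on 2 pairs, ET 1 with PF 1 and ET 3 with PF 3, and those against AD on 3 pairs. For RT1-N2, ET 3 at 0.916 and PF 3 at 1.04 were both at the floor. Its difference from PF in that fit thus lies in ET 1 at 0.335 and PF 1 at 156.

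The number of littermates and 3 technical averages limit the precision; at the depth of 10853947 to 17498392 fragments, no fold is given for the 10 members at the floor.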
